A study of Mus musculus with 2 samples.

Results

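Oligodendrocytes, the myelinating glia of the brain, arise from precursor cells that persist in the adult. A precursor divides under the growth factor PDGF-AA, commits, passes through a short-lived newly formed stage and then switches on the myelin genes. Adult hippocampus keeps such precursors among its neurons, and the transcription factors Olig1, Olig2 and Sox10 mark cells along the whole path. The 10 genes described here were chosen by symbol, with earlier results of these data known, and all 10 were matched among 55536 annotated genes. They fall into 4 precursor genes (Pdgfra, Cspg4, Cacng4 and Lhfpl3), 3 genes of committed and newly formed cells (Gpr17, Neu4 and Enpp6) and 3 lineage-wide transcription factors (Olig1, Olig2 and Sox10).

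The study sequenced total RNA of the hippocampus, labelled as a layer of it, from male mice of the hybrid strain B6CASTF1/J. That strain is a cross of C57BL/6J with CAST/EiJ, and the mice were 18 to 20 months old. The 2 libraries, replicate 1 and replicate 2, form 1 group, and each was made from 300 ng of RNA. No mutation or treatment is named. Both tissue samples carry a single donor record, so whether they came from separate animals is not given, and the SD may be partly technical. With 1 group of 2 libraries no p-value below 0.5 was possible, so none is given, and each difference is set beside the values of both libraries. Levels are in TPM, a share of all transcripts that is corrected for transcript length, and errors are SDs over the libraries (n = 2). In bulk tissue, fewer cells of a type and less RNA per cell cannot be told apart.

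The libraries held 34563482 (replicate 1) and 32370292 (replicate 2) expected counts on genes. A gene with 0 counts could still have up to 0.0868 and 0.0927 CPM, the count scaled to the library total, from counting error alone. Of 6 markers of hippocampal principal neurons all were detected, led by Zbtb20 (115 ± 7.83 TPM), Wfs1, Fibcd1 and C1ql2, and Iyd was lowest at 2.11 and 2.09 TPM. All 6 neuron, 6 astrocyte and 6 microglia markers were detected as well, at medians of 288 ± 12.4, 133 ± 4.57 and 14.6 ± 1.37 TPM. The libraries differed in choroid plexus RNA: the 8 markers of that tissue summed to 37.6 TPM in replicate 1 and 702 TPM in replicate 2, all 8 were higher in replicate 2, and Ttr measured 29.9 and 672 TPM. Its part in the results below was not tested.

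All 10 genes were detected, which here means 1 TPM or more in each library, as were 57.5% of protein-coding genes. Lineage-wide transcription factors stood highest, at a median of 11.9 ± 0.990 TPM, precursor genes at 6.64 ± 0.0530 TPM and committed genes at 3.03 ± 0.0495 TPM. The lineage-wide median was 1.79 ± 0.135 times the precursor median, and the precursor median was 2.20 ± 0.0535 times the committed median. Each SD is that of a median, not of the group. The committed median was Neu4 in both libraries, so its SD leaves out Gpr17 (SD 1.31 TPM) and Enpp6 (SD 0.552 TPM). The lineage-wide median was Sox10 in replicate 1 and Olig2 in replicate 2, and the precursor median lay midway between Cacng4 and Cspg4. These distances exceeded the SD of the medians between libraries, but the groups hold different genes, so they do not rank cell numbers. The second distance rests on the group given to Neu4: with Neu4 counted as a precursor gene the log2 ratio of precursor over committed turned from 1.13 to -0.07. The first rests on the length correction: in CPM the log2 ratio of lineage-wide over precursor was 0.02, against 0.84 in TPM. That CPM value is a mean over libraries of opposite order. The lineage-wide median was above the precursor median in replicate 1 and below it in replicate 2.

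**Figure D1:**
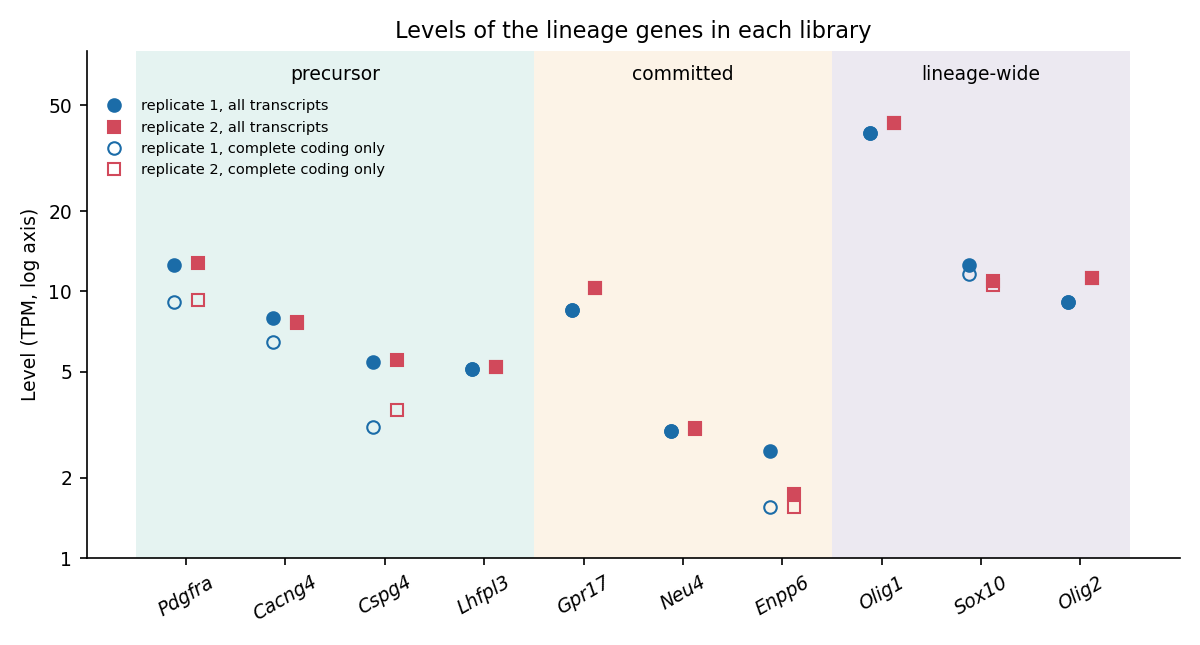
Levels of the 10 genes in each library, in TPM on a log axis. Filled marks count all transcripts of a gene, open marks only transcripts with a complete coding sequence, and an open mark is hidden where the values coincide; Olig1 lies above 39 TPM in both libraries, and the open marks of Pdgfra, Cspg4, Enpp6 and Sox10 lie below the filled ones in both libraries, and that of Cacng4 does in replicate 1.

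Among the transcription factors, Olig1 stood apart from its relatives. Olig1 codes for a basic helix-loop-helix factor needed for myelination and repair, and it measured 39.4 TPM in replicate 1 and 43.0 TPM in replicate 2. It ranked 2422 of 22028 protein-coding genes and was the only one of the 10 above 14.6 TPM, the median of detected protein-coding genes. Olig2, the related factor that specifies the lineage, measured 9.10 and 11.2 TPM. Olig1 was therefore 4.08 ± 0.352 times as high as Olig2 on this scale. Sox10, an HMG-box factor that directly activates myelin genes, measured 12.6 and 10.9 TPM. Sox10 was above Olig2 in replicate 1 and slightly below it in replicate 2, so their order was not resolved. Olig2 lies on chromosome 16 from 91225457 to 91228677 and Olig1 from 91269772 to 91271933 (mm10, plus strand), 41.1 kb apart with 1 annotated gene between them, and Sox10 lies on chromosome 15 from 79154908 to 79165240 (minus strand).

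Among precursor genes, Pdgfra led. It codes for the receptor of PDGF-AA that drives precursor division, and it measured 12.5 TPM in replicate 1 and 12.8 TPM in replicate 2. Its range overlapped that of Sox10. Cacng4, which codes for an auxiliary subunit of AMPA receptors, measured 7.93 and 7.69 TPM. Cspg4, the gene of the NG2 proteoglycan on the precursor surface, measured 5.43 and 5.52 TPM. Lhfpl3, a multi-pass membrane protein gene used as a precursor marker, measured 5.10 and 5.20 TPM. These 4 genes kept 1 order in both libraries, with Pdgfra 2.32 ± 0.0131 times Cspg4, but Cspg4 was only 1.06 ± 0.0022 times Lhfpl3. The last step was not kept in the second table described below, where Cspg4 measured 7.60 and 6.88 TPM and Lhfpl3 7.57 and 7.94 TPM. It also reverses once transcripts without a complete coding sequence are left out. Pdgfra lies on chromosome 5 from 75152292 to 75198215 and Lhfpl3 on the same chromosome from 22746059 to 23275597, both on the plus strand. Cspg4 lies on chromosome 9 from 56865033 to 56899870 (plus strand), and Cacng4 on chromosome 11 from 107732357 to 107794557 (minus strand).

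The committed genes were led by Gpr17, with Neu4 and Enpp6 lower. Gpr17, the gene of a G protein-coupled receptor that is switched on at commitment and off before myelination, measured 8.49 TPM in replicate 1 and 10.3 TPM in replicate 2. It was below Olig2 within each library by less than the spread between libraries, and its range lay below that of Pdgfra, with a ratio to Pdgfra of 0.742 ± 0.0904. Neu4, the gene of a sialidase that removes sialic acid from glycoproteins and glycolipids, measured 2.99 and 3.06 TPM. Enpp6, the gene of a choline phosphodiesterase of newly forming oligodendrocytes, measured 2.52 and 1.74 TPM and was the lowest of the 10. Gpr17 was 3.11 ± 0.382 times Neu4 and 4.66 ± 1.82 times Enpp6, and the latter was 3.37 in replicate 1 and 5.94 in replicate 2. The Enpp6 levels rested on 139 and 124 expected counts, those of Gpr17 on 1086 and 1215, and those of Olig1 on 2041 and 2047. Neu4 lies on chromosome 1 from 94020451 to 94028334 and Enpp6 on chromosome 8 from 46986887 to 47096762, both on the plus strand.

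From top to bottom, Olig1 was 20.2 ± 6.42 times Enpp6. Pdgfra and Sox10 changed places between the libraries, and so did Sox10 and Olig2, so the order of these neighbours was not settled. Olig2 was 1.07 times Gpr17 in replicate 1 and 1.09 times in replicate 2, although their ranges over the libraries overlapped. Every other neighbouring pair kept its order in both libraries without overlap. A second quantification, made by the authors from the reads directly, detected all 10 genes as well. On the TPM scale of that table Olig1 stood at 61.3 ± 4.25 and Enpp6 at 3.46 and 4.01. All 10 genes were higher there. After both were rescaled to nuclear protein-coding genes, the ratio of the second to the first level lay between 0.770 (Cspg4) and 1.05 (Neu4), with a median of 0.946 over detected protein-coding genes.

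The gene level counts transcripts that cannot make the full protein and their removal changed the order of some genes. Of the 10 genes, 7 have several annotated transcripts; Olig1, Olig2 and Gpr17 have 1 each. Of the 7, 6 had the same leading transcript in both tables and both libraries; among genes with several transcripts and at least 1 TPM the share was 67.1%. The exception was Neu4, where the order of its transcripts by count, not TPM, was the same throughout. Transcripts with a complete coding sequence held 61.1% ± 5.44 of Cspg4 TPM, 72.5% ± 0.418 of Pdgfra TPM and 76.0% ± 20.0 of Enpp6 TPM. In the second table these shares were 79.2% ± 15.1, 74.8% ± 6.55 and 57.3% ± 4.60.

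**Figure D2:**
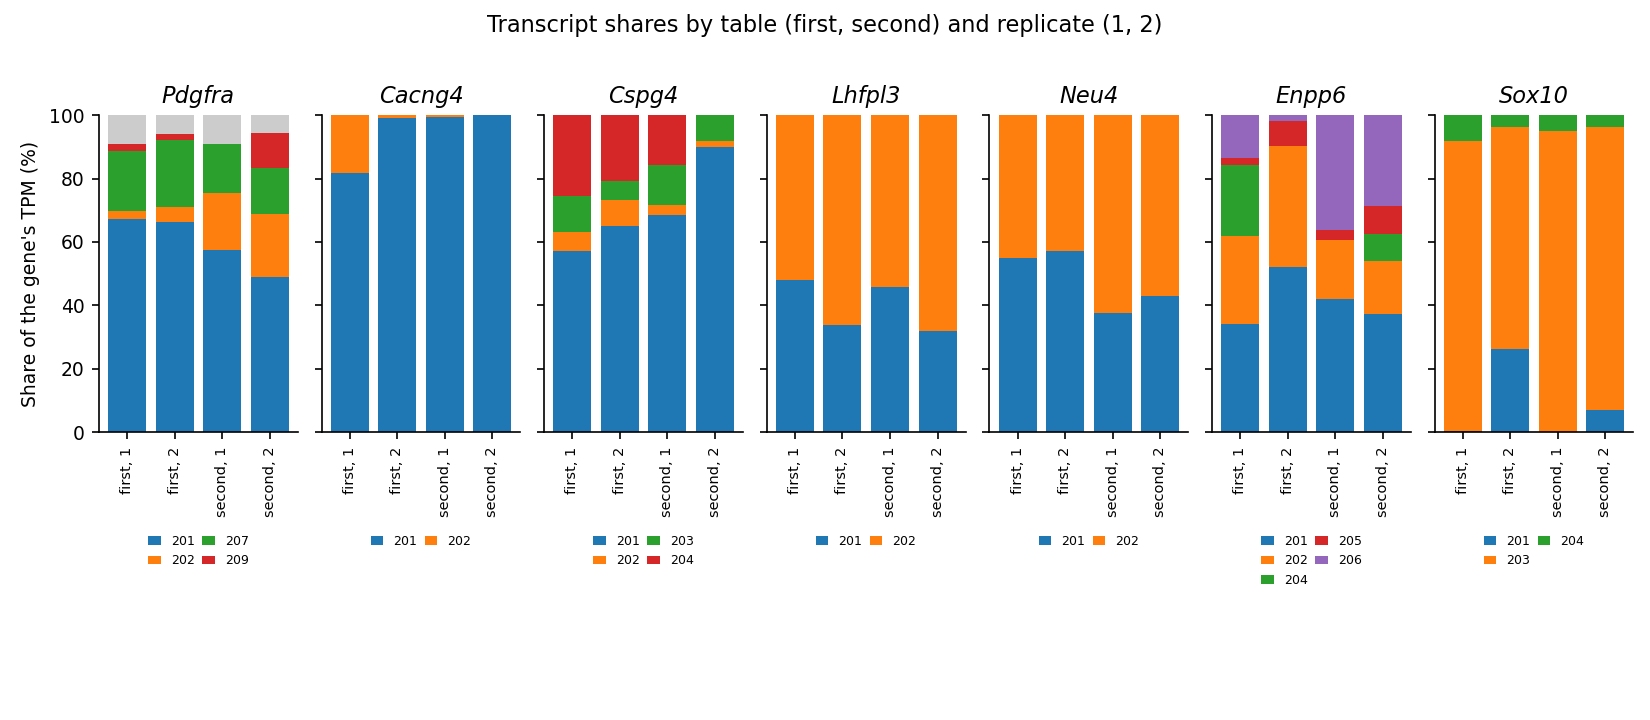
Share of each gene's TPM held by its transcripts, for the 7 genes with several transcripts. Each panel has 4 bars, the first (alignment-based) and second (read-based) table in replicates 1 and 2; colours are transcripts holding at least 5% in any bar, by the number in their name, and grey is the rest. The larger part of the Neu4 bars is transcript 201 in the first table and 202 in the second, while the Lhfpl3 bars differ between replicates in the same way in both tables.

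For Cspg4 the remainder was assigned to transcripts annotated as intron-retaining. Cspg4-201, the only coding transcript, codes for 2327 amino acids and measured 3.11 TPM in replicate 1 and 3.58 TPM in replicate 2. Cspg4-204, a retained-intron transcript of 3267 bases, held 25.6% and 20.9% of Cspg4 TPM in the first table, but 15.8% and 0% in the second. The share of Cspg4 TPM assigned to intron-retaining transcripts was therefore not settled between the tables, and what RNA these reads came from was not tested. Counting complete coding transcripts only, Cspg4 stood at 3.35 ± 0.332 TPM, below Lhfpl3 at 5.15 ± 0.0640 TPM.

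For Pdgfra the remainder of the TPM in the first table was mostly assigned to a truncated transcript. Pdgfra-207, annotated as a non-stop decay transcript with an open frame of 481 amino acids and no stop codon, held 19.1% in replicate 1 and 21.3% in replicate 2 of Pdgfra TPM, and 15.5% and 14.4% in the second table. Pdgfra-207 is short, at 1561 bases, and in the first table it took only 87.7 and 92.0 of 1554 and 1478 expected counts. Pdgfra-201 and Pdgfra-202 have the same coding sequence for the receptor of 1089 amino acids. Pdgfra-201 led in both tables, at 66.7% ± 0.707 and 53.2% ± 5.89, while Pdgfra-202 took 3.65% ± 1.67 and 19.0% ± 1.27. The tables thus differed in how they divided reads between transcripts of the same coding sequence. With complete coding transcripts only, Pdgfra stood at 9.12 and 9.27 TPM, within the range of Gpr17 at 8.49 and 10.3 TPM. The second table gave the same picture on its own scale, at 14.01 ± 0.0470 TPM for complete coding Pdgfra and 13.9 ± 1.43 TPM for Gpr17.

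Enpp6 was the member whose library difference lay in short intron-retaining transcripts. Its complete coding transcripts measured 1.56 TPM in both libraries, while its retained-intron transcripts measured 0.900 TPM in replicate 1 and 0.0300 TPM in replicate 2. Those levels rested on 10.1 and 0.28 expected counts. In the second table the retained-intron transcripts held 36.3% and 37.0% of Enpp6 TPM, so the difference between the libraries was not seen there. By count rather than TPM, Enpp6 had a log2 ratio of replicate 2 over replicate 1 of -0.09 (95% counting interval -0.45 to 0.27). In the first table a similar pattern held for Cacng4, where the 422-base noncoding transcript Cacng4-202 held 18.2% of the TPM in replicate 1 and 0.910% in replicate 2 on 11.7 and 0.550 expected counts. Complete coding Cacng4 transcripts measured 6.48 and 7.62 TPM, so that replicate 2 was the higher library there and the lower one in the gene level. In the second table Cacng4-202 held 0.569% and 0%, and the Cacng4 gene level was higher in replicate 2, at 10.3 and 11.3 TPM.

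The coding ends of the Enpp6 transcripts show how the smaller enzyme arises. Enpp6-201 codes for 440 amino acids and held 34.1% and 52.0% of Enpp6 TPM. Enpp6-202 codes for 390 and held 27.8% and 38.2%. In the second table they held 39.6% ± 3.22 and 17.8% ± 1.38, so Enpp6-201 led throughout. The sequences below (GENCODE M21 transcripts, mm10, chromosome 8, plus strand, 5′ to 3′) give the last 30 shared coding bases in lower case and the next 45 coding bases of each in capitals. That of Enpp6-202 is unspliced, at chr8:47082509-47082583, and its capitals open with the GT of the splice site that Enpp6-201 uses; that of Enpp6-201 is spliced and ends at base 47093038.
Enpp6-201: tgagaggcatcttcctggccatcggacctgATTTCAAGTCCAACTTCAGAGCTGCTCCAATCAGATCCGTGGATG
Enpp6-202: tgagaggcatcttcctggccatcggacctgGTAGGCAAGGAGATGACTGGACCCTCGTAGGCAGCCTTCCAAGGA

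Lhfpl3 was measured as 2 coding transcripts that differ in size and in their coding end. Lhfpl3-202, which codes for 228 amino acids, held 52.2% of the TPM in replicate 1 and 66.1% in replicate 2. Lhfpl3-201, which starts at another first exon and codes for 80 amino acids, held 47.8% and 33.9%. The second table gave Lhfpl3-202 54.2% and 68.0%, so both tables put it first and placed the libraries in the same order. Only Lhfpl3-202 contains a 48-base exon at chr5:23221865-23221912, which holds its stop codon. The coding ends (GENCODE M21 transcripts, mm10, chromosome 5, plus strand, spliced, from base 23102619) show this: the 30 shared bases are in lower case, and the bases that follow up to and including the stop codon are in capitals.
Lhfpl3-202: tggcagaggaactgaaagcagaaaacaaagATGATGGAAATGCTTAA
Lhfpl3-201: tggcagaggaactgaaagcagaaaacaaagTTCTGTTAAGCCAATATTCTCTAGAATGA

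Counting only the transcript for the larger protein, Lhfpl3-202 measured 2.66 TPM in replicate 1 and 3.43 TPM in replicate 2, below Cspg4-201 in both libraries. The second table gave Lhfpl3-202 4.10 and 5.40 TPM and Cspg4-201 5.21 and 6.18 TPM, the same order. The order of Lhfpl3 and Cspg4 thus depends on the table and on which transcripts are counted.

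Neu4 was the gene whose leading transcript depended on the table. Neu4-201, which codes for 478 amino acids, held 54.9% and 57.0% of Neu4 TPM in the first table and 37.5% and 42.9% in the second. Neu4-202, which codes for 501, took the rest. The larger form adds 23 amino acids at the start of the protein, and the exon that carries its first coding bases is absent from Neu4-201. The start of the Neu4-202 coding sequence is printed with those 37 bases in capitals (GENCODE M21, mm10, chromosome 1, plus strand, spliced, from base 94021596 to 94022377).
Neu4-202: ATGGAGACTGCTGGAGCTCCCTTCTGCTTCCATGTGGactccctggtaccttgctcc

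Sox10 was measured almost only as full-length coding RNA. Sox10-201 and Sox10-203 share 1 coding sequence for 466 amino acids, and all 2713 bases of Sox10-201 lie within the 2780 bases of Sox10-203. Sox10-203 held 91.4% of Sox10 TPM in replicate 1 and 70.2% in replicate 2, while Sox10-201 held 0.400% and 26.1%. In the second table Sox10-201 held 0.0051% and 7.04%. Sox10-204, a retained-intron transcript, held 5.99% ± 3.18, and the complete coding transcripts together held 94.0% ± 3.18 in the first table and 95.7% ± 0.730 in the second.

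Between the libraries 0 of the 10 genes differed by 1.5-fold or more. Of the 14887 genes averaging 1 CPM or more, 2.25% did. At so small a share, 0 of 10 does not set the 10 genes apart from the rest. Of the 10, 2 were lower in replicate 2, against 49.1% of the 14887 genes. The median log2 ratio, replicate 2 over replicate 1, was 0.03 over the 10 genes and 0.00 over all genes tested. Pdgfra was nearest to equal, at a ratio of 1.00 (95% Clopper-Pearson interval 0.932 to 1.08, counting error only). Olig2 was higher in replicate 2, at 1.19 (1.06 to 1.34), and so was Gpr17, at 1.18 (1.08 to 1.28). Sox10 was lower in replicate 2, at 0.860 (0.775 to 0.955). The intervals of Olig2, Gpr17 and Sox10 exclude equality as far as counting goes, while those of the other 7 genes include it. With 1 library on each side these are differences between 2 libraries. Scaling to the ERCC spike-in RNAs moved the median of all genes to -0.18 and made 8 of the 10 genes lower in replicate 2 in place of 2, so these directions are relative to the other genes. With ERCC scaling the log2 intervals of Olig2 (-0.09 to 0.24) and Gpr17 (-0.06 to 0.18) include equality. Those of Pdgfra (-0.28 to -0.07) and Olig1 (-0.19 to -0.01) then exclude it, as does that of Sox10 (-0.55 to -0.25), the only one of the 10 to exclude it under both scalings.

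**Figure D3:**
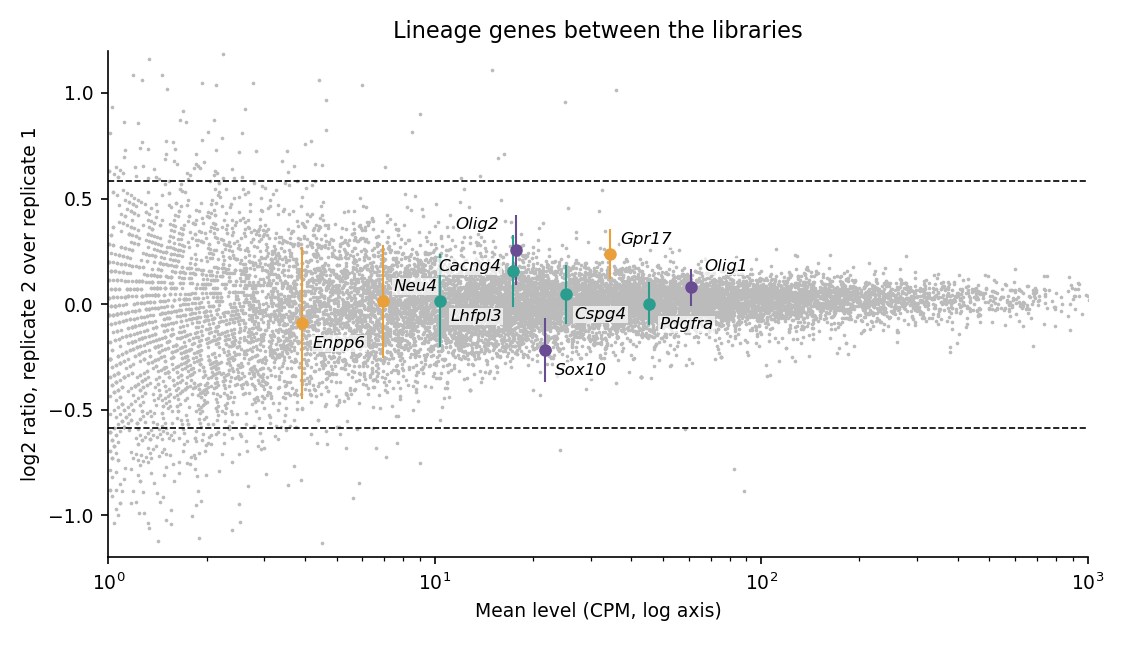
Log2 ratio of replicate 2 over replicate 1 against the mean level in CPM on a log axis. Grey points are the 14887 genes averaging 1 CPM or more, of which 126 lie beyond the axes; coloured points are precursor (green), committed (orange) and lineage-wide genes (purple) with 95% counting intervals, and all 10 lie between the dashed lines at 1.5-fold.

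Gpr17 shares 188 exonic bases with Lims2, a gene on the opposite strand. Lims2 measured 4.84 TPM in replicate 1 and 7.87 TPM in replicate 2, the same direction as Gpr17. Whether counting used strand is not given in the sources used here, and the part of Lims2 reads in the Gpr17 level was not tested. Genes on the opposite strand over Pdgfra, Olig1 and Enpp6 were listed at 0 TPM in both libraries, and A930003O13Rik, which shares 567 exonic bases with Lhfpl3, measured 0.110 ± 0.0566 TPM. The deposited posterior SD of the gene count was 0 for all 10 genes in both libraries, so the first table gave their gene counts no spread from dividing shared reads.

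The other genes of the lineage were measured from lists chosen with earlier results of these data known. All 12 of the other precursor genes were detected, with a median of 8.17 ± 0.834 TPM. They were led by Cspg5 (116 ± 3.71 TPM) and Ptprz1 (50.5 ± 1.42 TPM), genes of chondroitin sulfate proteoglycans that neurons or astrocytes also express, followed by Xylt1 (18.1 ± 0.559 TPM), an enzyme gene of proteoglycan synthesis, and Sox5 (13.5 ± 1.59 TPM). Emid1 was the lowest, at 1.30 and 1.69 TPM. Ptprz1 was 3.99 ± 0.0432 times Pdgfra. Of the 10 other committed and newly formed genes 8 were detected, with a median of 8.12 ± 0.244 TPM. Nfasc (54.4 ± 2.67 TPM), Fyn (46.9 ± 0.658 TPM), Bcas1 (35.0 ± 2.20 TPM) and Tns3 (22.2 ± 1.34 TPM) led, and neurons express Nfasc and Fyn as well. Bcas1, a marker of early myelinating cells, was 16.9 ± 3.34 times Enpp6. Casr, a calcium-sensing receptor gene, was the lowest on 4 and 1 counts.

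Of the 8 other regulators 7 were detected, with a median of 9.27 ± 0.265 TPM. Zfp365 (107.5 ± 6.82 TPM), Sox8 (22.4 ± 0.721 TPM), a close relative of Sox10, Zfp536 (18.8 ± 1.46 TPM) and Myrf (13.97 ± 0.834 TPM), the master regulator of myelin genes, led the list. Nkx6-2, a regulator of maturing oligodendrocytes, measured 5.53 TPM in replicate 1 and 3.60 TPM in replicate 2. By count its log2 ratio was -0.59 (counting interval -0.90 to -0.29), on 238 and 150 counts. It was the only one of the 7 detected regulators past 1.5-fold, against 2.25% of the 14887 genes averaging 1 CPM or more. At 1.505-fold it only just passed, and its interval spans the cutoff. Nkx6-2 is named after its values were seen. Olig3, the third Olig gene, which marks spinal cord and brainstem progenitors, had 0 and 1 counts.

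At the far end of the lineage, all 12 mature myelin genes were detected. Their median was 41.8 ± 0.385 TPM, 6.30 ± 0.108 times the precursor median and 13.8 ± 0.0990 times the committed median. Mbp (684 ± 27.5 TPM), the gene of a main protein of compact myelin, was among the highest, as were Mobp (171 ± 2.75 TPM) and Cnp (76.7 ± 0.0778 TPM). Mbp was 331 ± 72.7 times Enpp6. Not all myelin genes were above the precursor genes: Opalin, at 3.52 ± 0.240 TPM, was below all 4 of them. The size of the myelin distance rests on length, with a log2 ratio of mature myelin over precursor of 2.66 in TPM and 1.62 in CPM.

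**Figure D4:**
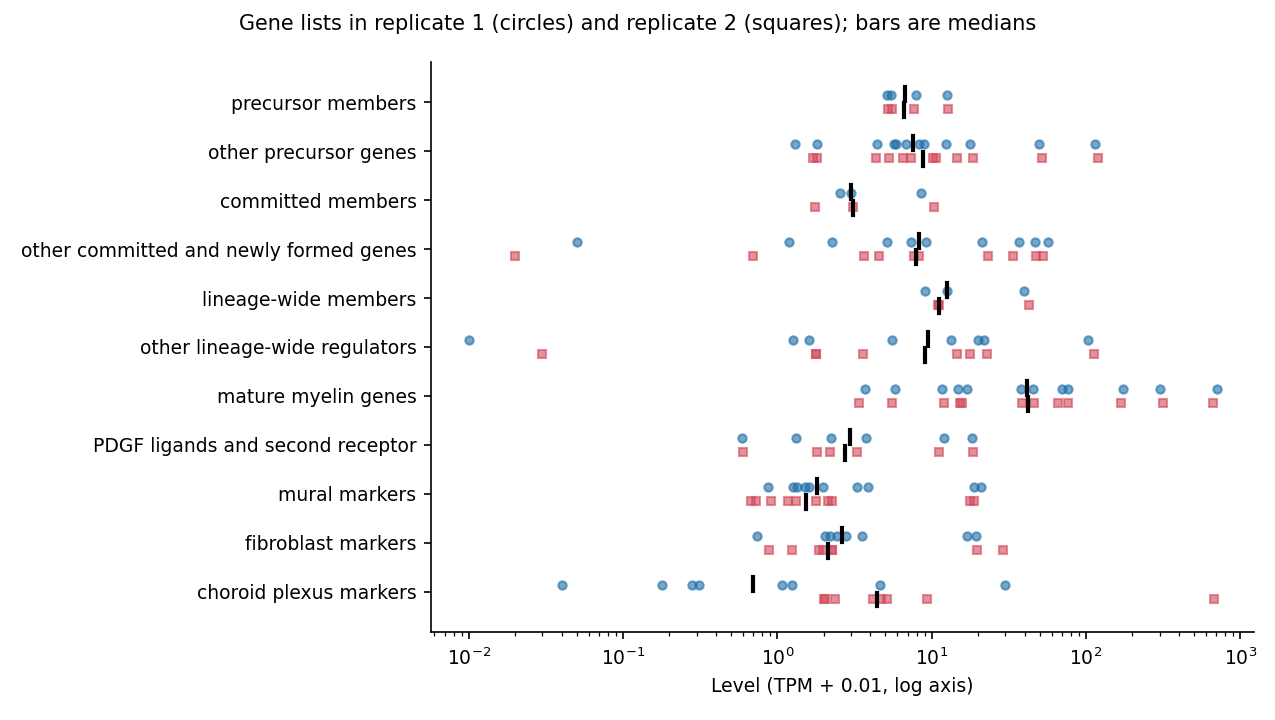
Levels of the genes of each list in replicate 1 (blue circles) and replicate 2 (red squares), as TPM + 0.01 on a log axis, with the median of each library as a black bar. The mature myelin medians lie near 42 TPM and to the right of the other lists, and the choroid plexus medians differ between the libraries, at 0.685 and 4.42 TPM.

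Of 6 PDGF ligand and receptor genes other than Pdgfra 5 were detected. Pdgfa, the gene of the ligand PDGF-A, measured 18.1 TPM in replicate 1 and 18.6 TPM in replicate 2, above Pdgfra in both. Pdgfb followed at 11.5 ± 0.643 TPM, and Pdgfc was far lower at 2.21 and 2.18 TPM. Pdgfrb, the receptor gene of mural cells, measured 3.50 ± 0.311 TPM, and Pdgfra was 3.64 ± 0.386 times Pdgfrb. Pdgfrl, a receptor-like gene, was the lowest at 0.585 ± 0.0071 TPM.

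Cspg4 is also expressed by the mural cells of vessels and Pdgfra by fibroblasts of the meninges and vessel walls, so markers of both were measured beside them. Of 10 mural markers 7 were detected, none was at 0, and they summed to 55.3 TPM in replicate 1 and 47.4 TPM in replicate 2. The highest were Vtn (19.3 ± 2.11 TPM), Rgs5 (18.8 ± 0.0495 TPM), Acta2 (2.99 ± 1.24 TPM) and Tagln (2.30 ± 1.39 TPM), and the lowest Kcnj8 (0.790 ± 0.0990 TPM). Of the 8 mural markers averaging 1 CPM or more, 0 were higher in replicate 2, and of all genes at that level 49.1% were lower there. The median log2 ratio of these markers was -0.24, and that of Cspg4 was 0.05. Of 8 fibroblast markers 7 were detected, none was at 0, and their sum was 54.5 ± 6.42 TPM. Igf2 (22.9 ± 8.66 TPM), which choroid plexus also expresses, and Dcn (19.5 ± 0.0778 TPM) were far above Slc6a13 (2.89 ± 0.898 TPM), Col1a2 (2.52 ± 0.382 TPM) and the lowest, Col3a1 (0.800 ± 0.0990 TPM). By count 1 of the 8 fibroblast markers, Igf2, was higher in replicate 2. The fibroblast median log2 ratio was -0.36, and that of Pdgfra was 0.00. How much of the Cspg4 and Pdgfra levels comes from these cells was not tested.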

How the data were processed

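Per the file headers, the authors deposited for each library a gene table and a first transcript table in the RSEM layout, with expected counts, TPM, a percent of the gene per transcript and a score, the posterior SD of the count. A second transcript table, in the kallisto layout, gives estimated counts and TPM. Per the deposited notes, all were made on mm10 with GENCODE M21, the first pair from a transcriptome alignment and the last from the reads; which tools, versions and strand setting were used is not given in the sources used here. The assembly represents C57BL/6J, and CAST/EiJ reads can align less well.

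The members and lists were chosen with earlier results of these data known, and the list of hippocampal principal cell markers was added after the data were seen. The genes named are the 10 members, the up to 4 highest and the lowest of each list, and member transcripts holding at least 5% in any table; 1 gene that the rule names is not reported here. Transcript shares were recomputed from the deposited TPM; a complete coding transcript is protein-coding with an annotated start and stop. Retained-intron and other groups follow GENCODE. Non-gene rows, 0.418% and 0.479% of counts, stayed out of library sizes. Ratios between libraries used rounded expected counts, TMM factors (edgeR 4.0.16, R 4.3.3) and a prior count of 0.5, with 95% Clopper-Pearson intervals; a floor is 3 counts. Reads carried no molecular identifiers that are known here, so several may stem from 1 molecule, and intervals and floors describe counting error alone. On counts simulated for 55536 genes, 100 of 100 genes changed 3-fold, 99 of 100 changed 2-fold and 101 of 14661 unchanged genes passed 1.5-fold. The changed genes were drawn above a higher minimum than 1 CPM, which Enpp6 does not reach, and the simulated spread was set beforehand. In the data 2.25% of 14887 genes passed 1.5-fold, so that spread was not matched to these libraries. Alternatives were the second table, DESeq2 1.42.0 size factors, ERCC scaling, other minimum values, CPM, means of log2(TPM + 1), rescaling to nuclear protein-coding genes, Neu4 as a precursor gene, each library alone, and complete coding transcripts, the last chosen after seeing the data.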

Additional observations from a re-analysis of the deposited data

How the results depend on the processing

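The order lineage-wide, precursor, committed depends on choices of scale and list, and the cause was not tested. Among the recomputed values 33 held, 22 moved by more than the SD between libraries (counts, by more than 1.5 times) and 2 changed sign. For the median log2 ratio of the 10 genes between libraries, the measure was the counting interval of their pooled counts in place of the SD. Some of the 33 could not do otherwise, so this tally does not measure robustness. With 2 libraries, the median or ratio of 1 library always lies within the SD of their mean. Lower minimum values could change nothing either, because all 10 genes passed the main ones. Median TPM of precursor, committed and lineage-wide genes was 9.27, 5.46 and 18.3 in the second table and 16.0, 7.27 and 28.7 over nuclear protein-coding genes; with Neu4 as a precursor gene the first pair was 5.48 and 5.77. With complete coding transcripts, chosen after seeing the data, the precursor median was 6.10. The log2 ratios of lineage-wide over precursor, precursor over committed and mature myelin over precursor were 0.98, 0.76 and 2.85 in the second table, 1.12, -0.0748 and 2.93 with Neu4 moved, 0.0237, 1.62 and 1.62 in CPM, and 1.12, 0.72 and 2.36 as means of log2(TPM + 1). With complete coding transcripts the last pair was 1.01 and 2.76. ERCC scaling turned the median log2 ratio of the 10 genes between libraries to -0.15. With each library alone the 3 ratios ranged from 0.76 to 0.92, 1.11 to 1.16 and 2.64 to 2.67. At a minimum of 5 TPM 8 of the 10 genes were detected. No paired analysis was possible because there was 1 group. Enpp6 and Neu4 had the fewest counts and so the widest counting intervals.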
